A study of Mus musculus with 12 samples.

Results

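The eIF4 factors described here are 10 genes of the cap-binding and helicase machinery of translation initiation, taken by name from the 20504 genes of the CDS count table and followed through all 12 libraries of the series. They are Eif4e and Eif4e2, which bind the cap, Eif4g1, Eif4g2 and Eif4g3, which belong to the scaffold family, the DEAD-box helicases Eif4a1, Eif4a2 and Eif4a3, and the helicase cofactors Eif4b and Eif4h. All 10 were in the table, and all 10 passed the limit of a mean of 37 counts per library in every comparison. The members were chosen by name and not by a measured value, although earlier results of these data were known.

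Translation of most mRNAs begins when eIF4E binds the cap at the start of the mRNA and recruits the scaffold eIF4G and the helicase eIF4A, which together form eIF4F. eIF4A unwinds structure in the leader of the mRNA, and eIF4B and eIF4H stimulate it. The kinase mTOR acts on this step through the 4E-BPs, small proteins that compete with eIF4G for eIF4E when they are not phosphorylated. The paralogs do not all share a role. Eif4a1 and Eif4a2 encode closely similar helicases of initiation, of which Eif4a2 is known to be prominent in brain, whereas Eif4a3 encodes a core subunit of the exon junction complex, which marks spliced mRNA. Eif4e2 encodes a cap-binding protein known for repression, and Eif4g2 encodes a protein that resembles eIF4G but lacks the binding site for eIF4E.

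The brains belonged to 6 adult mice, 3 months old, of the Camk2a-RiboTag cross. All of the mice carried the RiboTag allele, an HA-tagged Rpl22, and a Cre transgene driven by the Camk2a promoter, so that the tag marks ribosomes of Camk2a-expressing cells, mainly excitatory neurons. Mice C and D received a single oral dose of 100 mg/kg AZD-8055, which blocks mTOR by competing with ATP, and were sacrificed after 1 h. Mice A and B were the controls, which the labels call untreated and the study's methods describe as given the Captisol vehicle. The right frontal lobe of each of these 4 mice was split between ligation-free ribosome profiling (footprints) and poly(A)+ RNA-Seq. Mice E and F were taken as untreated. From them, RNA-Seq was made of the whole homogenate (input) and of RNA recovered by immunoprecipitation of HA-tagged polysomes (IP).

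The counts on CDS ranged from 3503873 to 9259938 in the footprint libraries, from 9395385 to 10649939 in the RNA-Seq libraries of the same mice and from 9309496 to 15585831 in the input and IP libraries. Footprint depth differed most between mouse A, with 9259938 counts, and mouse C, with 3503873. Replicate libraries were not alike within counting error, as the chi-square per degree of freedom lay between 2.61 and 9.53 over the 6 groups. Each group had 2 mice. The edgeR p-values below rest on the spread between libraries of a group, estimated over all groups of a fit and shared in part across genes. The main fits held no term for the mouse, so libraries of the same mouse were treated as independent.

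The bases around the annotated start of the mRNA are shown for the helicase paralogs and Eif4b. The results turn on the difference between Eif4a1 and Eif4a2. In addition, mRNAs that begin with a C followed by a run of pyrimidines are known as targets of mTOR. Each line holds 30 bases, 15 on either side of the start that RefSeq annotates on GRCm38.p6 (mm10), read 5′ to 3′ on the strand of the gene. Capitals mark a C followed by at least 4 pyrimidines (C or T).
Eif4a1, chr11:69672409-69672438, minus strand: acaaagtaacgtcacgtcgagttgcagagc
Eif4a2, chr16:23107453-23107482, plus strand: ccgcggaaaccccgtaggagcagggcggcc
Eif4a3, chr11:119300029-119300058, minus strand: gcgcgcgccttacatccggttcccgccgcg
Eif4b, chr15:102073758-102073787, plus strand: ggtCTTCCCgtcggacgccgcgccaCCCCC
Only Eif4b of these 4 genes held such a run in the window. Of its marked stretches, the first lies before the annotated start and the other after it, and the start falls on neither. RefSeq starts were found for 9 of the 10 members, all but Eif4g2. No run began exactly at any of the 13 annotated starts of these members, against 2.51% of all 32851 RefSeq starts and 18.4% of 76 starts of ribosomal protein genes. A run lay anywhere in the 30 bases at 30.8% of the members' starts, 36.4% of all starts and 59.2% of those of ribosomal protein genes. The members with a run in the window were Eif4b and, among those not printed, Eif4e, Eif4e2 and Eif4g1. For Eif4e and Eif4e2 it did not lie at all of their annotated starts. The search covered the sense strand only. An annotated start need not be the one used in brain, and a match in these letters is a description of the window.

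The gene of Eif4a1 spans 69666936 to 69672423 on chromosome 11 and that of Eif4a2 spans 23107468 to 23114132 on chromosome 16, so the paralogs lie on different chromosomes. Eif4a3 lies on chromosome 11 between 119288363 and 119300043, and Eif4b on chromosome 15 between 102073773 and 102097173, all on GRCm38.p6. The coding sequences of Eif4a1 and Eif4a2 are closely similar, and short footprints can fit both. Reads that fit both genes cannot be told apart. The study describes the reads on CDS as uniquely mapped. The part that the authors' handling of reads fitting both genes has in the values of each gene was not tested.

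The translation efficiency (TE) of a gene is its footprint count over its RNA-Seq count in the same mouse, both scaled by DESeq2 size factors, so it is relative to a typical gene. In vehicle-treated mice the members spanned a wide range of TE. The cofactor Eif4h and the cap-binding protein Eif4e stood highest, the scaffold genes Eif4g2 and Eif4g3 lowest, and Eif4a1, Eif4a2 and Eif4b lay moderately above the median of all genes. The mean log2 TE of the members in mice A and B ran from −1.45 for Eif4g2 to 1.12 for Eif4h, with a median of 0.026 beside 0.044 for all 10169 genes measured in both mice.

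Among the helicases, the log2 TE of Eif4a1 was 0.38 and 0.39 in mice A and B, and Eif4a2 had 0.47 and 0.57. Eif4a3, the exon junction member, had −0.098 and −0.24. The initiation helicases thus lay above the exon junction helicase in both mice. In an edgeR quasi-likelihood test of footprints against RNA-Seq with Benjamini-Hochberg adjustment, Eif4a1 was higher by a log2 value of 0.43 (SE 0.069, adjusted p = 3.90e-05) and Eif4a2 by 0.56 (SE 0.077, adjusted p = 7.07e-06). Eif4a3 had −0.12 (SE 0.085) with an adjusted p of 0.226 and was not called.

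The cofactors differed from each other. Eif4h, an RNA-binding protein that stimulates eIF4A, reached log2 TEs of 1.13 and 1.12, which placed its mean at the 89.9th percentile of all genes. Eif4b had 0.18 and 0.26, at the 58.4th percentile. The edgeR value was 1.16 for Eif4h (SE 0.072, adjusted p = 7.16e-10) and 0.26 for Eif4b (SE 0.071, adjusted p = 0.00379). The call for Eif4b was lost without mouse B, where the adjusted p was 0.103, and over its 10 alternatives the adjusted p ran from 0.00103 to 0.131.

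Of the cap-binding genes, Eif4e reached log2 TEs of 0.92 and 1.02. Eif4e2 had −0.32 and −0.012, a wide spread on 188 and 117 footprints. Eif4e was higher in footprints by 1.01 (SE 0.076, adjusted p = 7.50e-09), while Eif4e2 was not called, at −0.14 (SE 0.13, adjusted p = 0.349).

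The scaffold genes all lay below the typical gene. Eif4g2 had log2 TEs of −1.39 and −1.51, Eif4g3 had −0.94 and −0.88, and Eif4g1, the main scaffold of eIF4F, had −0.41 and −0.36. The 3 genes kept this order in both mice. Their edgeR values were −1.40 (SE 0.071, adjusted p = 7.12e-11), −0.87 (SE 0.069, adjusted p = 1.35e-08) and −0.34 (SE 0.065, adjusted p = 1.84e-04).

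In all, 5 of the 10 members were called higher in footprints than in RNA-Seq and 3 lower, where 36.5% of all 11797 genes tested were called higher and 37.3% lower. The members' shares lay near these. With library totals in place of TMM the median of all genes moved by −0.14 and the members split into 4 higher and 4 lower, as Eif4b lost its call and Eif4a3 was called lower.

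**Figure D1:**
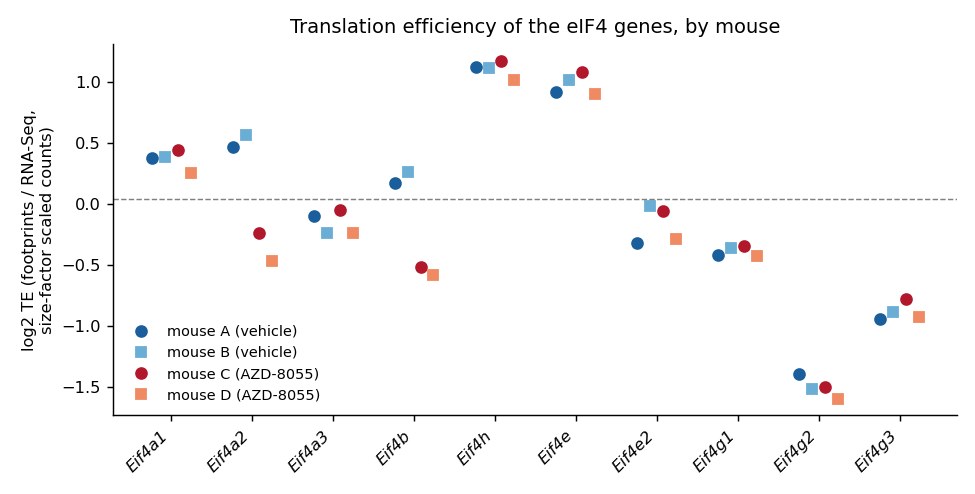
Log2 TE of the 10 eIF4 genes in each of the 4 mice with footprints, with 1 point per mouse and gene. The dashed line is the median of all genes in vehicle-treated mice (0.044). Points of Eif4a2 and Eif4b lie above the line in mice A and B and below it in mice C and D, and the points of the other 8 genes overlap between the treatments.

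The mice treated with AZD-8055 address which of these mRNAs change in TE when mTOR is inhibited. Relative to a typical gene, TE fell for Eif4a2 and Eif4b, and no other member was called. A change shared by all genes cannot be seen on this scale. Eif4a2 passed from above the typical gene to below it, and so did Eif4b, while Eif4a1 and Eif4a3, the closest paralogs of Eif4a2, and Eif4h, the other cofactor, had changes of −0.029, 0.018 and −0.023 on the log2 scale.

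Footprints of Eif4a2 numbered 9901 and 4835 with vehicle (mice A and B) and 2253 and 2671 with AZD-8055 (mice C and D), with RNA-Seq counts of 7917, 7443, 8074 and 8436 in the same order. Its log2 TE was 0.47 and 0.57 with vehicle and −0.23 and −0.46 with AZD-8055. The treated mice lay below both control mice without overlap, and the mean moved from the 71.6th to the 31.8th percentile of all genes. The change in TE was −0.86 on the log2 scale (SE 0.11, adjusted p = 2.63e-04, edgeR), a TE of 0.552 times that with vehicle.

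Eif4b had 1796 and 966 footprints with vehicle and 509 and 673 with AZD-8055, with RNA-Seq counts of 1760, 1838, 2222 and 2306. Its log2 TE was 0.18 and 0.26 with vehicle and −0.52 and −0.58 with AZD-8055, again without overlap. The mean moved from the 58.4th to the 24.8th percentile. The change was −0.76 (SE 0.10, adjusted p = 4.72e-04, edgeR), a TE of 0.589 times that with vehicle.

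Eif4a1 had 4762 and 2326 footprints with vehicle and 1776 and 2249 with AZD-8055, over RNA-Seq counts of 4059, 4047, 3976 and 4315. Its log2 TE was 0.45 in mouse C and 0.26 in mouse D, on either side of the control values. The change was −0.029 (SE 0.098, adjusted p = 0.984).

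The other 7 members had TE changes between −0.097 for Eif4g2 and 0.065 for Eif4g3, with standard errors from 0.092 to 0.20 and adjusted p of 0.907 or more. The largest of these errors was that of Eif4e2, which had 83 and 104 footprints in the treated mice. In each of these 7 members the change was smaller than 1 standard error. Eif4e, Eif4e2 and Eif4g1, which like Eif4b held a pyrimidine run near an annotated start, had changes of 0.026, 0.014 and 0.0049.

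The members called lower numbered 2 of 10, against 0.788% of all genes tested (93 of 11797). Both calls held without each mouse in turn, with adjusted p up to 0.0118 for Eif4a2 and 0.0250 for Eif4b, although the number of genes called in all fell from 102 to 56 without mouse A. Neither change reached 2-fold, a limit that 0.297% of all genes passed in the lower direction. The test of Eif4a2 and of Eif4b does not compare either with its paralog.

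**Figure D2:**
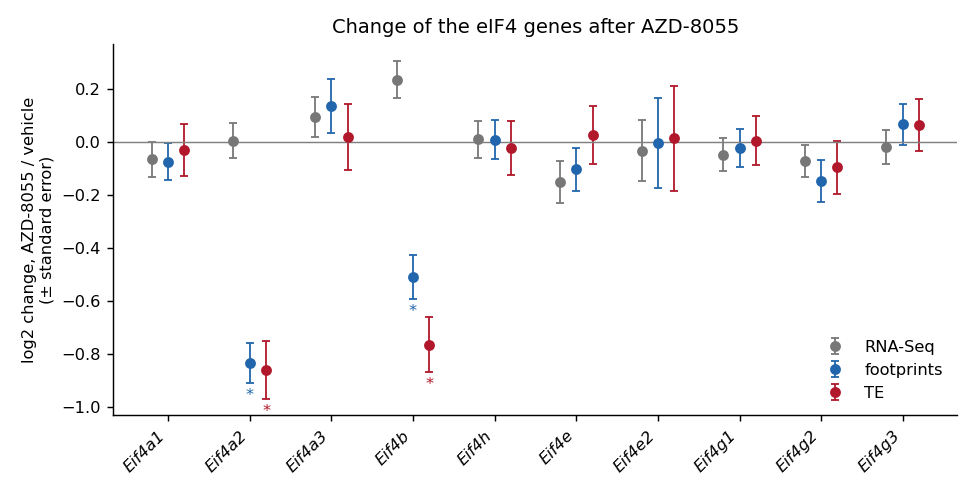
Log2 change after AZD-8055 in RNA-Seq, footprints and TE for each eIF4 gene, from 2 treated against 2 vehicle-treated mice. Points are edgeR estimates, bars are standard errors, and an asterisk marks an adjusted p under 0.05. Eif4a2 and Eif4b carry asterisks in footprints and TE, and no gene carries one in RNA-Seq.

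At the level of RNA, none of the 10 members was called by edgeR, and none by DESeq2, where edgeR called 0.148% of all genes (18 of 12182). The changes ran from −0.15 for Eif4e (SE 0.079) to 0.23 for Eif4b (SE 0.070). Eif4b was the only member with an unadjusted p under 0.05. Its scaled RNA-Seq counts were 1303 and 1261 with vehicle and 1555 and 1508 with AZD-8055, so the groups did not overlap, with an adjusted p of 0.308. Eif4a2 had an RNA change of 0.0046 (SE 0.066). The RNA-Seq of bulk tissue cannot separate fewer cells of a type from less RNA per cell.

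In the footprints alone, the same 2 genes were lower, against 0.982% of all genes called lower (105 of 10695). Scaled footprint counts of Eif4a2 were 8121 and 7558 with vehicle and 4813 and 4002 with AZD-8055. Those of Eif4b were 1473 and 1510 with vehicle and 1087 and 1008 with AZD-8055. The treated values lay below both control values for each gene. The change was −0.83 for Eif4a2 (SE 0.076, adjusted p = 2.01e-04) and −0.51 for Eif4b (SE 0.081, adjusted p = 0.0108). Eif4b lost its call without mouse B, with a change of −0.45 and an adjusted p of 0.286, and its adjusted p over 9 alternatives ran from 6.84e-07 to 0.286. The number of genes called in footprints was 110 and ranged from 64 without mouse B to 837 without mouse C, and was 265 without mouse D.

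No marker gene of excitatory or inhibitory neurons, astrocytes, oligodendrocytes, their precursors, microglia or endothelial cells was called after AZD-8055 in RNA-Seq, footprints or TE. The summed scaled RNA-Seq count of 7 excitatory markers was 28491 to 29488 with vehicle and 29564 to 32580 with AZD-8055, and that of 6 inhibitory markers 7985 to 8437 and 8804 to 9068. The sums of the astrocyte, oligodendrocyte and microglia lists overlapped between the treatments. The part of these shifts in the members' values was not tested.

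Ratios between members of a family within a library need no scaling between libraries, and coding length cancels when the same ratio is compared across libraries. Eif4a2 had 1.95 and 1.84 times the RNA-Seq count of Eif4a1 in mice A and B, and 2.03 and 1.96 times in mice C and D. In footprints the ratio was 2.08 in each of mice A and B, and 1.27 and 1.19 in mice C and D. The RNA-Seq ratios of the treatments lay close together while the footprint ratios of the treated mice lay below all others. Since coding lengths were not used, these ratios give no order of abundance between the paralogs.

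On the log2 scale, the ratio of Eif4a1 to Eif4a2 in footprints minus that in RNA-Seq was −0.092 and −0.18 in mice A and B and 0.68 and 0.72 in mice C and D. The sign was opposite between the treatments. The mean differed by 0.83 between treated and control mice, with an exact two-sided permutation p of 0.333, the smallest that 2 against 2 mice allow. This difference was computed after the values had been seen. Over all 4 mice the mean was 0.28 ± 0.48 (SD), with an exact sign-flip permutation p of 0.5.

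The pair Eif4a2 and Eif4a3 showed the mirror image, with 0.57 and 0.80 in control mice and −0.19 and −0.23 in treated mice. The pair Eif4a1 and Eif4a3 stayed at 0.48 and 0.63 with vehicle and 0.49 and 0.49 with AZD-8055. Within the helicases, the 2 ratios that changed sign were thus those that contain Eif4a2. Eif4b over Eif4h was lower in footprints than in RNA-Seq in every mouse, with differences of −0.95 and −0.86 with vehicle and −1.69 and −1.60 with AZD-8055.

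In the other families the treated mice differed from the control mice by −0.16 to 0.096 in these log2 ratios. Eif4e over Eif4e2 was higher in footprints than in RNA-Seq by 1.15 ± 0.091 (SD over 4 mice), Eif4g1 over Eif4g2 by 1.11 ± 0.090 and Eif4g1 over Eif4g3 by 0.49 ± 0.046. Of the 8 pairs compared, 6 had the same sign in all 4 mice. Each of those 6 had the smallest exact sign-flip p that 4 mice allow, which was 0.167 after adjustment over the 8 pairs. This exact test over 4 mice cannot reach 0.05.

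**Figure D3:**
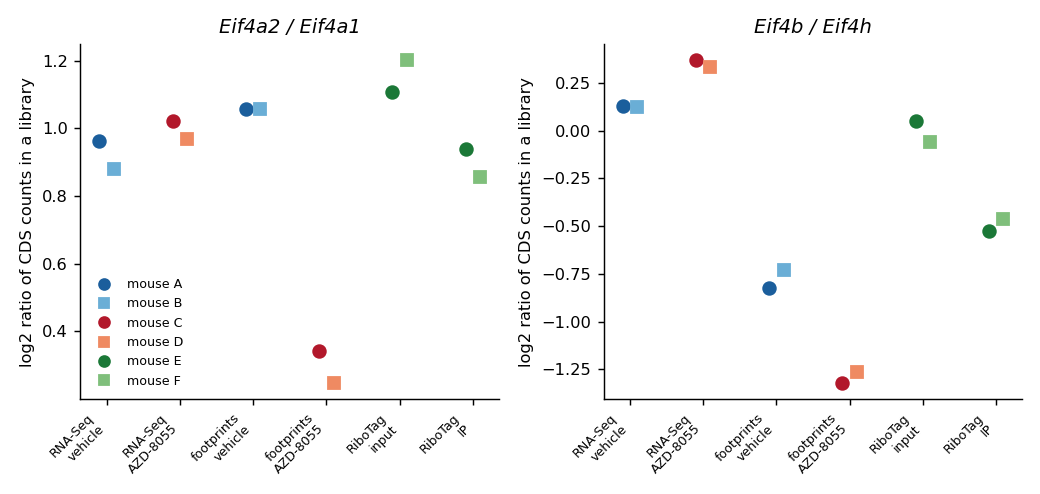
Log2 ratio of the CDS counts of Eif4a2 to Eif4a1 (left) and of Eif4b to Eif4h (right) in each of the 12 libraries, with 1 point per library and colours for mice. In the left panel the footprint libraries of mice C and D lie at 0.34 and 0.25, below the other 10 libraries. In the right panel the same 2 libraries lie lowest, at −1.32 and −1.27.

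A list of 24 other genes of cap-dependent initiation gives the setting of these values. After AZD-8055, 1 of the 21 tested was called lower in TE and none higher, where 0.788% of all genes tested were called lower. The list gene called was Pabpc1, which encodes the poly(A)-binding protein that contacts eIF4G. Pabpc1 had 1539 and 781 footprints with vehicle and 296 and 305 with AZD-8055, and its change was −1.34 (SE 0.14, adjusted p = 4.32e-05, edgeR), beside an RNA change of 0.11 (SE 0.071, adjusted p = 0.723). The footprint change of Pabpc1 was −1.21 (SE 0.12, adjusted p = 2.70e-04). Pdcd4, which encodes an inhibitor of eIF4A, had a TE change of −0.16 (SE 0.10, adjusted p = 0.821).

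Of the 4E-BPs, Eif4ebp2 had a TE change of −0.44 (SE 0.30, adjusted p = 0.834) on 98, 54, 37 and 43 footprints in mice A to D. Eif4ebp1 had 9, 5, 6 and 10 footprints and Eif4ebp3 had 4, 3, 1 and 3, which left both below the limit, and the depth could not show a change in either. Reads of Eif4ebp3 may in part come from transcripts of the neighbouring gene, and this was not tested. The list's median TE change was −0.11, that of 12 tested eIF3 subunits −0.24 with 4 called lower, and that of 78 tested ribosomal protein genes −0.89 with 71 called lower. The median of the 10 members was −0.0090, and that of all genes −0.011 with 0.788% called lower.

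In vehicle-treated mice, 10 of the 21 tested list genes were higher in footprints and 6 lower, again near the background shares. Those higher included Paip2b (1.50, SE 0.12) and Paip2 (0.82, SE 0.083), which encode inhibitors of the poly(A)-binding protein, and Paip1 (0.66, SE 0.077), which encodes its activator. The helicase Ddx3x (1.44, SE 0.090), Pdcd4 (0.84, SE 0.070), Eif4ebp2 (0.81, SE 0.20), Magoh (0.78, SE 0.15), Rbm8a (0.66, SE 0.091), Gigyf2 (0.36, SE 0.082) and Cyfip1 (0.32, SE 0.075) were the others. Those lower were Zfp598 (−1.83, SE 0.10), Gigyf1 (−1.20, SE 0.098), Eif4enif1 (−0.95, SE 0.11), Mknk2 (−0.78, SE 0.12), Pabpc1 (−0.55, SE 0.095) and Rps6kb1 (−0.36, SE 0.12). The call of Rps6kb1 was lost with DESeq2 (adjusted p 0.0704), without mouse A (0.164) and without mouse B (0.0678), and that of Cyfip1 without mouse A (0.127). Magoh and Rbm8a encode partners of Eif4a3 in the exon junction complex, and Gigyf1, Gigyf2 and Zfp598 encode partners of Eif4e2. These values are log2 footprints over RNA-Seq.

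Across all 12 libraries, the genes whose scaled log2 counts were most like those of Eif4a1 among 12013 genes were Cox7b (Pearson r = 0.995), Fkbp3 (r = 0.995) and Pdhb (r = 0.994). For Eif4a2 they were Eif2a (r = 0.941), Nit2 (r = 0.932) and Ncbp1 (r = 0.930), and for Eif4b they were Med26 (r = 0.889), Eif2a (r = 0.881) and Nsa2 (r = 0.879). Eif4a2 and Eif4b had r = 0.846 with each other, which placed Eif4a2 16th in the ranking for Eif4b and Eif4b 77th in that for Eif4a2. Eif4a1 came 692nd in the ranking for Eif4a2, at r = 0.746. The libraries are of different kinds and share mice, depth and scaling, so these values describe the 12 libraries only.

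The comparison of IP with input gives how the members' mRNAs stand on the tagged ribosomes of Camk2a-expressing cells. In the main fit, with TMM scaling and CDS counts, the helicases and their cofactors were higher in IP. The scaffold genes lay close to the typical gene in that fit. Results for Eif4b, Eif4a2 and the scaffold genes changed with the scaling, filter or count table, as given below. In the IP, 5 of 7 excitatory markers were higher in both mice and 2 were lower. Markers of inhibitory neurons, astrocytes, oligodendrocytes, their precursors and endothelial cells were lower in both mice without exception, and 5 of 6 microglia markers were lower. None of the marker genes was at 0. The summed scaled count of 7 excitatory markers was 45915 to 48924 in input and 97152 to 102184 in IP, and that of 6 astrocyte markers 12798 to 13653 and 1206 to 1419. The part of this shift in cell types in the members' IP values was not tested.

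Eif4a3 had 850 and 999 counts in the input of mice E and F and 1090 and 1130 in their IP, which after scaling gave log2 ratios of 1.35 and 1.41. Eif4a1 had 1.13 and 1.15, and Eif4a2 had 0.97 and 0.81. All 3 helicases were higher in the IP of both mice. In edgeR the IP change was 1.24 for Eif4a3 (SE 0.12, adjusted p = 1.95e-05), 1.01 for Eif4a1 (SE 0.13, adjusted p = 1.36e-04) and 0.75 for Eif4a2 (SE 0.13, adjusted p = 8.34e-04).

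Eif4h had log2 ratios of 1.18 and 0.81, Eif4e of 0.61 and 0.54 and Eif4b of 0.60 and 0.41. Their edgeR values were 0.87 (SE 0.13, adjusted p = 2.49e-04), 0.44 (SE 0.12, adjusted p = 0.0105) and 0.37 (SE 0.12, adjusted p = 0.0169). Eif4e2 had 0.20 (SE 0.15, adjusted p = 0.254). The scaffold genes had 0.049 for Eif4g1 (SE 0.10), 0.062 for Eif4g3 (SE 0.11) and −0.097 for Eif4g2 (SE 0.10), with adjusted p between 0.423 and 0.680. Hence 6 of 10 members were called higher and none lower, against 36.5% higher and 39% lower among all 12211 genes tested.

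The call depended on the scaling of the libraries. With library totals in place of TMM, the median of all genes moved by −0.44, and the members split into 3 higher and 3 lower. The 3 lower were the scaffold genes, with −0.53 for Eif4g2, −0.39 for Eif4g1 and −0.37 for Eif4g3. Their adjusted p in edgeR were 0.00171, 0.00742 and 0.0116. Eif4a1, Eif4a3 and Eif4h were called higher with either scaling, whereas Eif4b turned to −0.061, Eif4e to 0.0010 and Eif4a2 to 0.31 with adjusted p of 0.650, 0.994 and 0.0608. With a limit of a mean of 200 counts, Eif4a1, Eif4a2, Eif4a3 and Eif4h were called higher and Eif4g2 lower, at −0.30, while Eif4b and Eif4e had 0.17 and 0.23 with adjusted p of 0.213 and 0.120. The members' median lay 0.47 above that of all genes under both scalings, 0.23 above with the limit of 200 counts, 0.65 above on exons and 0.69 above without a filter. Over the alternatives the adjusted p ran from 6.33e-04 to 0.650 for Eif4b, from 4.45e-04 to 0.994 for Eif4e and from 4.40e-10 to 0.0608 for Eif4a2.

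The choice of CDS or exon counts also bore on the members. On exons, which include the UTRs, 7 members were called higher and 1 lower, against 33.7% and 35.7% of 13254 genes. Eif4h led with 1.24 (SE 0.096, adjusted p = 1.23e-04), followed by Eif4a3 with 0.82 (SE 0.11), Eif4b with 0.70 (SE 0.087), Eif4a1 with 0.69 (SE 0.10), Eif4e with 0.63 (SE 0.096), Eif4a2 with 0.59 (SE 0.13) and Eif4e2 with 0.38 (SE 0.098, adjusted p = 0.0139). Eif4g1 turned to −0.30 (SE 0.082, adjusted p = 0.0177). The exon count over the CDS count was higher in IP than in input for the median gene by 0.36 on the log2 scale. This rise was 0.83 for Eif4h, 0.79 for Eif4b and 0.66 for Eif4e, but 0.040 for Eif4a3, 0.12 for Eif4g1 and 0.14 for Eif4a1.

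**Figure D4:**
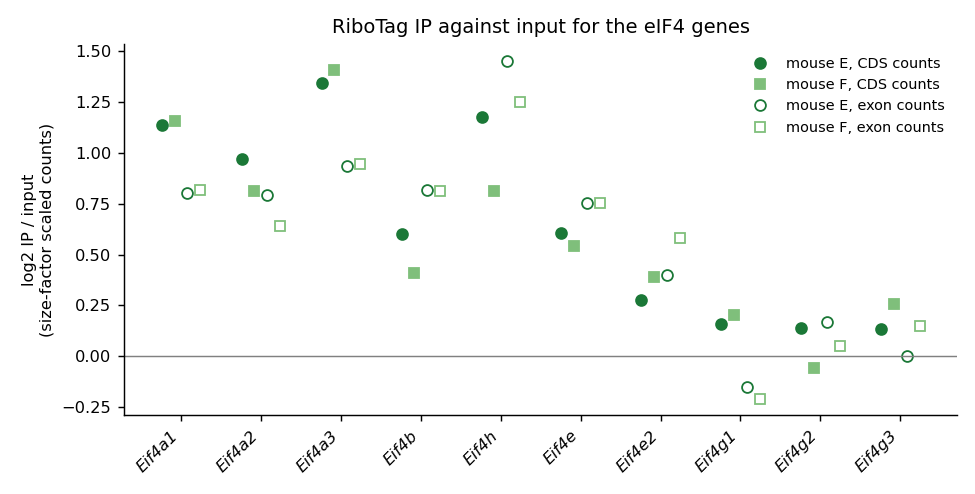
Log2 ratio of IP to input for each eIF4 gene in mice E and F, from counts scaled by size factors. Filled points use CDS counts and open points exon counts, and 0 marks no difference. The helicases, Eif4h, Eif4e, Eif4e2 and Eif4b lie above 0 in both mice with either table, and the Eif4g genes lie near 0.

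The ratio of Eif4a2 to Eif4a1 was 2.15 and 2.30 in the input of mice E and F and 1.92 and 1.81 in their IP, so it was lower in the IP of both mice. Eif4a1 over Eif4a2 was higher in IP by 0.26 ± 0.13 (SD, 2 mice) on the log2 scale with CDS counts and by 0.093 with exon counts. Eif4b over Eif4h was lower in IP than in input, with differences of −0.58 and −0.40 on CDS. A sign-flip test over 2 mice cannot go below 0.5, so no test is given.

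Of the 22 list genes tested in the IP, 7 were higher and 9 lower, near the shares of all genes (36.5% and 39%). Higher were Magoh (1.57, SE 0.15), Magohb (1.46, SE 0.23), Rbm8a (1.24, SE 0.13), Pdcd4 (0.83, SE 0.12), Paip1 (0.78, SE 0.13), Paip2 (0.43, SE 0.13) and Eif4enif1 (0.34, SE 0.12). Lower were Gigyf1 (−1.91, SE 0.14), Eif4ebp2 (−1.69, SE 0.31), Cyfip1 (−1.51, SE 0.13), Ddx3x (−1.45, SE 0.14), Gigyf2 (−1.42, SE 0.16), Casc3 (−0.83, SE 0.17), Mknk1 (−0.79, SE 0.18), Zfp598 (−0.51, SE 0.15) and Rps6kb1 (−0.47, SE 0.16). Magoh, Magohb, Rbm8a and Casc3 all encode partners of Eif4a3 in the exon junction complex, so genes of that complex went both ways on CDS. Eif4ebp2 had 149 and 136 counts in input and 26 and 19 in IP. With exon counts 5 of these calls were lost, those of Ddx3x (−0.076, adjusted p 0.676), Rps6kb1 (−0.11, adjusted p 0.349), Casc3 (−0.17, adjusted p 0.277), Eif4enif1 (0.17, adjusted p 0.165) and Paip2 (0.22, adjusted p 0.0685). Pabpc1, at −0.26 with an adjusted p of 0.0727 on CDS, was called lower on exons, at −0.59. With the mouse as a block Pabpc1 was also called lower on CDS, at −0.26 with an adjusted p of 0.0107, and its adjusted p over the alternatives ran from 7.10e-04 to 0.207. All 78 tested ribosomal protein genes and 11 of 12 eIF3 subunits were higher on CDS, with medians of 1.35 and 1.20.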

How the data were processed

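The authors deposited raw counts of reads per gene, in a CDS file with all 12 libraries and an exon file with the 8 RNA-Seq libraries. Per the labels and the study's methods, footprint reads were trimmed, clipped of poly(A) and freed of rRNA with Bowtie2, aligned with TopHat2 to mm10 and counted by HTSeq (strict intersection). No versions of these tools are named. Both tables hold whole numbers and gene symbols. On CDS, 27 entries, with 0.350% of the counts, have symbols that a spreadsheet turned into dates, and they were kept as entries of their own.

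Tests used edgeR 4.0.16 in R 4.3.3 (TMM, quasi-likelihood F-test, Benjamini-Hochberg over all genes tested, threshold 0.05) on genes whose mean count over the libraries was 37 or more. TE and its change were fitted over 8 libraries and the other comparisons over 4. Values per mouse were scaled with DESeq2 1.42.0 size factors, and a TE of 1 mouse needed 37 counts in each library. RiboDiff, which the study used, was not run. Family ratios used exact permutation tests over mice. The fits were also run on simulated counts with known changes, drawn as independent libraries without an effect shared by a mouse. The known changes were larger than those of any member, so changes of the members' size were not simulated. Figures were drawn with matplotlib 3.10.9 in Python 3.11.15. Starts and positions are from RefSeq on GRCm38.p6, the assembly of mm10.

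The members and lists were chosen with earlier results of these data known. All 10 members are named, other genes of the cap-dependent list where they passed a test, and Pdcd4, Pabpc1 and the 4E-BPs always. The 3 genes most like Eif4a1, Eif4a2 and Eif4b were ranked by Pearson correlation. Ribosomal protein genes and eIF3 subunits serve as counts and medians. The alternatives were DESeq2, other normalizations, filters, count tables and call rules, the mouse as a block and leaving out each mouse. Libraries with the same mouse letter were taken to come from 1 animal, as the study describes matched samples. The letters follow the order of the libraries in the series. As a check, deviations of A from B correlated at 0.243 between footprints and RNA-Seq over genes, those of C from D at 0.197, and those of E from F at 0.476 between input and IP. No coding lengths were used, so levels are not compared between genes.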

Additional observations from a re-analysis of the deposited data

Results flagged for a closer look

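Footprints against RNA-Seq differed between treated and control mice for 3 of the genes named, by a test of the difference itself (edgeR). The TE changes were −0.86 for Eif4a2, −0.76 for Eif4b and −1.34 for Pabpc1, each lower in both treated mice than in both control mice. The ratio of Eif4a1 to Eif4a2 in footprints minus that in RNA-Seq had opposite signs in all control and all treated mice and differed by 0.83 between the treatments. That of Eif4a2 to Eif4a3 did so too, by −0.89. For each of these ratios the exact permutation p was 0.333, the smallest possible with 2 mice a group, so this exact test cannot reach 0.05. Both ratios contain Eif4a2, so they are not separate observations.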

How the results depend on the processing

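The TE calls of Eif4a2 and Eif4b after AZD-8055 held under each alternative test, scaling, filter and omission of a mouse, and were lost only under the 2-fold limit, which left 0 members, 36 of all genes, and in the IP 2 members and 5680 genes. With the replicate block (mouse), 8 members were called in vehicle TE, 2 in its change and 6 in the IP, and no member's call changed. Library totals reversed TE changes of Eif4a1 (0.0055) and Eif4h (0.012), the RNA change of Eif4a2 (−0.0013), the footprint change of Eif4e2 (0.0055), the members' median IP change (−0.030) and the IP changes of Eif4b (−0.061), Eif4e2 (−0.24), Eif4g1 (−0.39), Eif4g3 (−0.37), Eif4enif1 (−0.100) and Paip2 (−0.010). They gave 29 genes called in RNA and a median member log2 TE of −0.071. Without a filter, TE changes became −0.028 for Eif4a3, −0.017 for Eif4e, −0.033 for Eif4e2 and −0.037 for Eif4g1, the footprint change of Eif4h −0.022, and 78 genes were called in RNA and 264 in footprints. With a mean of 200 counts, TE changes were 0.00078 for Eif4a1 and 0.0075 for Eif4h, and IP changes −0.0059 for Eif4e2, −0.16 for Eif4g1 and −0.14 for Eif4g3. DESeq2 called 28 genes in RNA. Exon counts gave IP changes of −0.30 for Eif4g1 and −0.040 for Eif4g3, and IP ratios of 0.093 for Eif4a1 to Eif4a2, −0.13 for Eif4a1 to Eif4a3, −0.22 for Eif4a2 to Eif4a3, −0.29 for Eif4g1 to Eif4g2 and 0.033 for Eif4g2 to Eif4g3. The footprint against RNA-Seq ratio was −0.13 for Eif4a1 to Eif4a2 in vehicle mice only and −0.21 for Eif4a2 to Eif4a3 in AZD-8055 mice only.

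Leaving out each mouse in turn assumes that a lone library varies like the other groups. The genes called then ranged from 56 to 77 for TE changes, 13 to 36 for RNA and 64 to 837 for footprints, and the members called in footprints from 1 to 2. TE changes ranged from −0.100 to 0.049 for Eif4a1, −0.050 to 0.10 for Eif4a3, −0.077 to 0.039 for Eif4h, −0.047 to 0.10 for Eif4e, −0.18 to 0.17 for Eif4e2 and −0.046 to 0.055 for Eif4g1. The vehicle TE of Eif4e2 ranged from −0.30 to 0.060 and the median member log2 TE from 0.039 to 0.12. RNA changes ranged from −0.052 to 0.012 for Eif4g3, −0.080 to 0.0995 for Eif4a2 and −0.0010 to 0.025 for Eif4h. Footprint changes ranged from −0.051 to 0.065 for Eif4h, −0.18 to 0.15 for Eif4e2 and −0.064 to 0.020 for Eif4g1. IP ratios ranged from −0.050 to 0.027 for Eif4g1 to Eif4g3 and −0.31 to 0.0054 for Eif4g2 to Eif4g3. For the IP this leaves 1 mouse and no test. The cause of these moves was not tested. Of the members, Eif4e2 had the fewest footprints, 83 to 188 per library.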
